A study of Mus musculus with 2 samples.

Results

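The miR-181 family of the mouse comprises 6 microRNA genes, *Mir181a-1*, *Mir181b-1*, *Mir181a-2*, *Mir181b-2*, *Mir181c* and *Mir181d*, which lie as 3 pairs on chromosomes 1, 2 and 8. The members were taken by gene name in the GENCODE M21 annotation, and all 6 were found among the 2202 microRNA genes counted. They were measured by microRNA-seq of total RNA, limited to short fragments, from hearts of male B6CASTF1/J mice aged 10 days. B6CASTF1/J animals are first-generation hybrids of C57BL/6J and the wild-derived CAST strain. There were 2 libraries, biological replicates 2 and 1 of a single group, for which the labels give no treatment. The labels name 1 donor identifier for both libraries but a sample identifier for each, so p-values below measure only the difference between these libraries, which may be technical. Counts on the strand of the microRNA genes summed to 6305782 in replicate 2 and 3748432 in replicate 1.

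A microRNA gene is transcribed into a hairpin from which a 5p and a 3p strand are cut, and 1 of them is loaded into a silencing complex that pairs with messenger RNAs through the seed, bases 2 to 8 of the strand. The 5p strands of miR-181 are generally regarded as the active ones. In mouse thymocytes miR-181a is known to set the sensitivity of T cell receptor signalling. In endothelial cells miR-181b is known to dampen NF-kB signalling, and in rat heart muscle cells miR-181c was found inside mitochondria, where it represses a respiratory chain subunit.

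The 5p strands are shown here because they define the family and because some of them come from more than 1 gene. Sequences are those of RefSeq on GRCm38.p6 (mm10), read 5′ to 3′, with the seed in capitals.
miR-181a-5p, from *Mir181a-1* and *Mir181a-2*: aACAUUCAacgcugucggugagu
miR-181b-5p, from *Mir181b-1* and *Mir181b-2*: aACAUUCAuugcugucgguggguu
miR-181c-5p, from *Mir181c*: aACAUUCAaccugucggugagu
miR-181d-5p, from *Mir181d*: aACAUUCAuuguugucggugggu
All 6 genes therefore give a 5p strand with the same seed, and of the 1738 mature entries in the RefSeq table only these 6 carried it. The 6 genes hold only 4 distinct 5p strands. Outside the seed, miR-181a-5p and miR-181c-5p were 1 edit apart, and miR-181b-5p and miR-181d-5p were 2 edits apart. Strands of different branches were 4 or 5 edits apart, so the sequences split into an a/c branch and a b/d branch, whose genes are called a-type and b-type here.

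The 3p strands are shown because they are the part in which the copies of a gene differ.
miR-181a-1-3p: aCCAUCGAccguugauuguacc
miR-181c-3p: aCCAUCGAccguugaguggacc
miR-181a-2-3p: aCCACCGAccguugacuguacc
miR-181b-1-3p: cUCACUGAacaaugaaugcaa
miR-181b-2-3p: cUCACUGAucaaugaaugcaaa
miR-181d-3p: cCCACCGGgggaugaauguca
All 6 were distinct, and they carried 4 different seeds. *Mir181a-1* and *Mir181c* shared a 3p seed although they lie on different chromosomes, *Mir181b-1* and *Mir181b-2* shared another, and *Mir181a-2* and *Mir181d* each had a seed of their own. The 3p strands of the 2 miR-181a genes were 2 edits apart, as were those of the 2 miR-181b genes.

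How far the copies are identical is shown on their whole hairpins, in which capitals mark the unbroken run that both copies share around the 5p strand.
*Mir181a-1*, chr1:137966455-137966541, plus strand: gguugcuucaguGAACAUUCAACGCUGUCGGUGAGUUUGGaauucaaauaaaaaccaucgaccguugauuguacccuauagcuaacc
*Mir181a-2*, chr2:38852735-38852810, plus strand: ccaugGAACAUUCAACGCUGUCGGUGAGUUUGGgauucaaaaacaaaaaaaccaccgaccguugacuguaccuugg
*Mir181b-1*, chr1:137966639-137966718, plus strand: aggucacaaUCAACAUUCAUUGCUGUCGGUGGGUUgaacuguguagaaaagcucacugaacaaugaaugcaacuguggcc
*Mir181b-2*, chr2:38853830-38853918, plus strand: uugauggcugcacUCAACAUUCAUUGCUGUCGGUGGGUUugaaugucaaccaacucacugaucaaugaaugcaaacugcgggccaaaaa
In the miR-181a pair the shared run was 28 bases and went 4 bases past the end of the annotated 5p strand. In the miR-181b pair it was 26 bases and ended with the last base of the 5p strand, so that a fragment reaching even 1 base further at its 3′ end matches only 1 of the copies. A read of exactly the annotated miR-181a-5p or miR-181b-5p matches both genes of its pair letter for letter. By contrast, the longest run of miR-181c-5p found in another gene's hairpin was 12 bases, and that of miR-181d-5p was 11 bases. The tables enter multiply mapped reads apart from the gene counts, and all entries add up to 17033667 reads in replicate 2 and 8835703 in replicate 1 in each of the 3 columns. The sources do not state how the counter told such reads apart. They amounted to 48.1% of the reads of replicate 2, against 36.8% for replicate 1. How many of them were miR-181a or miR-181b is not known from the tables, and the tables do not separate 5p from 3p reads. The levels of the 4 miR-181a and miR-181b genes are therefore uncertain, whereas the 5p strands of *Mir181c* and *Mir181d* have no identical copy in the RefSeq table.

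The loci differ in their surroundings. On chromosome 1, *Mir181a-1* and *Mir181b-1* are 97 bases apart and lie in an intron of the noncoding gene *Gm4258* on the same strand. The same annotation places all 80 bases of *Mir181b-1* and 11 bases of *Mir181a-1* in an exon of a further noncoding gene of that strand, *A430106G13Rik*. On chromosome 2, *Mir181a-2* and *Mir181b-2* are 1019 bases apart and lie on the strand opposite to *Nr6a1*, a nuclear receptor gene, within its introns. *Mir181b-2* also lies opposite an exon of *Gm44144*, an unclassified transcript. On chromosome 8, minus strand, *Mir181c* (chr8:84178873-84178961) and *Mir181d* (chr8:84178716-84178787) are 85 bases apart in an intron of *Nanos3*, a germ cell gene, on the same strand. No read was counted on the strand opposite to any of the 6 genes in either library, and a count of 0 allows up to 3 counts. An annotated gene lies on that strand at 4 of them. Over all counted genes the opposite strand had 1748008 counts in replicate 2 and 992027 in replicate 1. How many of the counted genes had 0 there was not determined.

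**Figure D1:**
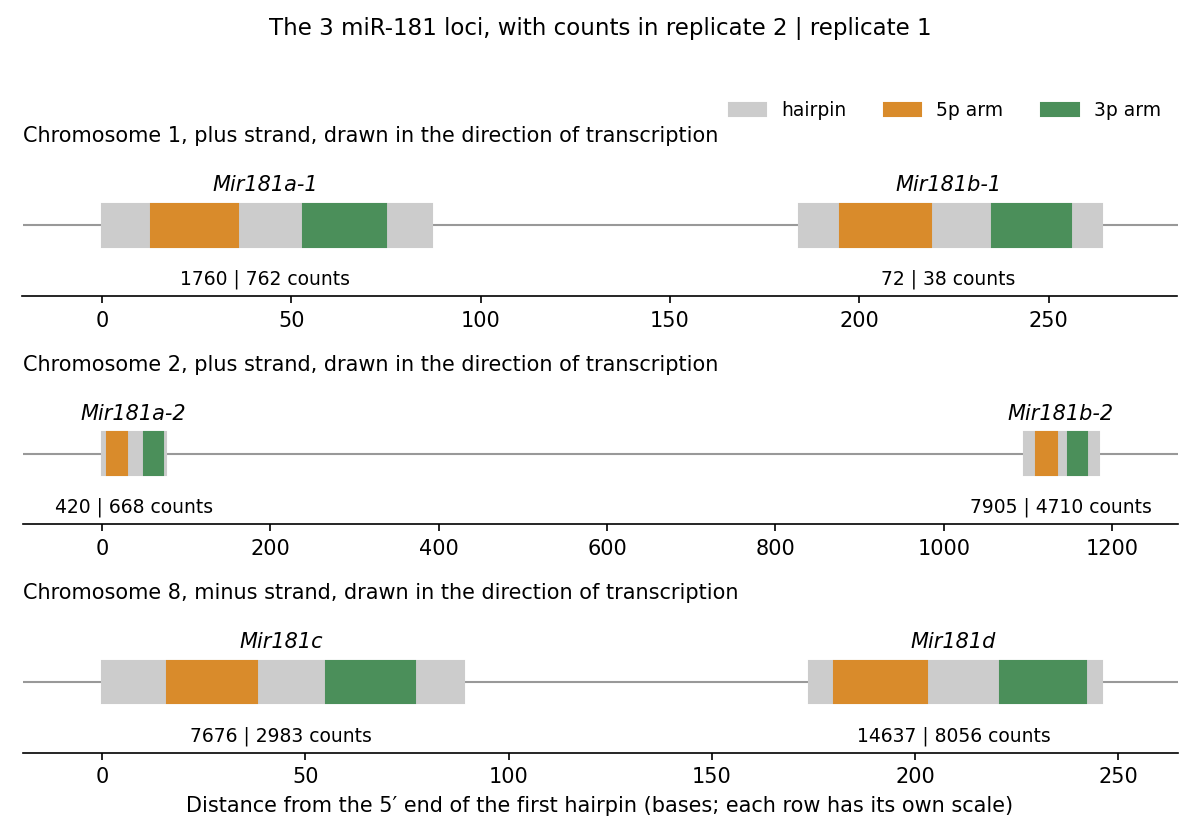
The 3 miR-181 loci drawn in the direction of transcription, with distance from the 5′ end of the first hairpin in bases on the x axis and a scale of its own for each row. Grey boxes are hairpins, orange and green boxes the 5p and 3p strands, and the numbers are the counts in replicate 2 and replicate 1, from 72 and 38 for *Mir181b-1* to 14637 and 8056 for *Mir181d*.

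All 6 genes were detected, here meaning at least 10 counts in both libraries, and the family was led by *Mir181d*, *Mir181b-2* and *Mir181c*. Together the 6 genes had 32470 counts in replicate 2 and 17217 in replicate 1. That was 0.515% of all microRNA gene counts in replicate 2 (exact Clopper-Pearson 95% interval 0.509% to 0.521%), against 0.459% in replicate 1 (0.452% to 0.466%). All intervals here describe the counting error of reads and nothing more. PCR copies are not independent molecules, so for molecules the intervals may be too narrow. On a scale of 1000000 microRNA gene counts per library (CPM) the family summed to 5149 in replicate 2 and 4593 in replicate 1, a mean of 4871 ± 393 CPM (SD, n = 2). The mean share was 0.193% with all reads as the total and 1.36% with the 10 most abundant genes left out of it. In bulk tissue, fewer cells of a type and less RNA per cell cannot be told apart. CPM was not divided by length, which assumes that the short mature strands were read whole. Ligation and amplification of single sequences were not measured, and an order of levels between genes holds for the assigned reads only.

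*Mir181d*, the b-type gene of chromosome 8, had 2321 CPM in replicate 2, against 2149 CPM in replicate 1. Its mean of 2235 ± 122 CPM (SD, n = 2) was the 45th of the 2202 genes in order of level. Of these 2202 genes, 340 were detected and 1469 had no count in either library. *Mir181b-2* had 1254 CPM in replicate 2, against 1257 CPM in replicate 1, and with a mean of 1255 ± 2.06 CPM it was the most even member. *Mir181c*, the a-type gene of chromosome 8, had 1217 CPM in replicate 2, against 796 CPM in replicate 1, with a mean of 1007 ± 298 CPM. *Mir181d* exceeded *Mir181b-2* by a mean log2 ratio of 0.83 ± 0.08, more than its spread between the libraries. *Mir181b-2* and *Mir181c* were not set apart by their spread, with a mean log2 ratio of 0.35 ± 0.44, although *Mir181b-2* was the higher of the pair in both libraries.

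The other 3 members were lower. *Mir181a-1* had 279 CPM in replicate 2, against 203 CPM in replicate 1, and *Mir181c* exceeded it by a mean log2 ratio of 2.05 ± 0.11. *Mir181a-2* had 66.6 CPM in replicate 2, against 178 CPM in replicate 1, the least even level of the family. *Mir181a-1* was above *Mir181a-2* in both libraries, but their mean log2 ratio of 1.13 ± 1.33 was smaller than its spread. *Mir181b-1* had only 72 counts in replicate 2 and 38 in replicate 1, equal to 11.4 and 10.1 CPM, and stood lowest in both. *Mir181a-2* exceeded it by a mean log2 ratio of 3.34 ± 1.13. With 2 libraries no test of this order was run.

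**Figure D2:**
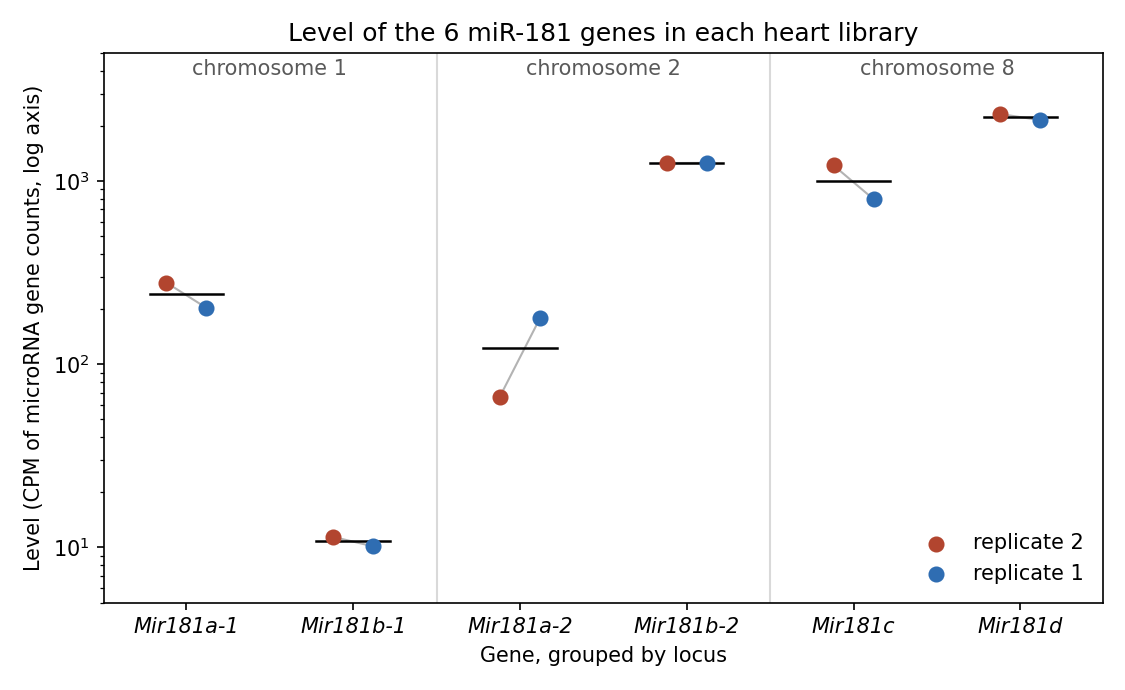
Level of each miR-181 gene in CPM on a log axis, with replicate 2 to the left of replicate 1 and a black line at the mean of both. *Mir181d* is highest and *Mir181b-1* lowest in both libraries, and *Mir181a-2* stands out as lower in replicate 2, with 66.6 CPM against 178 CPM.

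The chromosome 8 locus held most of the family's counts. *Mir181c* and *Mir181d* took 68.7% of them in replicate 2 (exact 95% interval 68.2% to 69.2%), against 64.1% in replicate 1 (63.4% to 64.8%). No other gene in the RefSeq table shares the 5p strand of either. The chromosome 2 locus took 25.6% in replicate 2 (25.2% to 26.1%) and 31.2% in replicate 1 (30.5% to 31.9%), most of it from *Mir181b-2*. The chromosome 1 locus took 5.64% in replicate 2 (5.39% to 5.90%) and 4.65% in replicate 1 (4.34% to 4.97%), nearly all of it from *Mir181a-1*. The order of the loci was the same in both libraries, and the part played by multiply mapped reads in this order was not tested.

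The leading gene was not of the same type in every locus. On chromosome 1 the a-type gene led, and *Mir181a-1* took 96.1% of the pair's counts in replicate 2 (exact 95% interval 95.1% to 96.9%), against 95.3% in replicate 1 (93.5% to 96.6%). On chromosome 2 the b-type gene led, and *Mir181a-2* took only 5.05% of its pair in replicate 2 (4.58% to 5.54%) and 12.4% in replicate 1 (11.6% to 13.3%). On chromosome 8 the b-type gene led by less, with *Mir181c* at 34.4% of the pair in replicate 2 (33.8% to 35.03%) and 27.0% in replicate 1 (26.2% to 27.9%). Each pair thus kept its leading gene in both libraries, by the assigned reads. On chromosomes 1 and 2 the part played by multiply mapped reads in these shares was not tested.

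The shares within the pairs were compared between the libraries by Fisher's exact test (two-sided) with Benjamini-Hochberg adjustment over 88 pairs of neighbouring microRNA genes, of which 64.8% passed at 0.05. The chromosome 2 pair passed, where the share of *Mir181a-2* differed by -7.38 percentage points, replicate 2 minus replicate 1 (adjusted p = 2.2e-52 by the exact test). The chromosome 8 pair passed as well, where the share of *Mir181c* differed by 7.38 percentage points (adjusted p = 5.2e-42 by the exact test). The chromosome 1 pair did not pass, with a difference of 0.82 percentage points (adjusted p = 0.435 by the exact test) and only 38 counts of *Mir181b-1* in replicate 1. That 2 of the 3 pairs passed is near the background. In log2 odds ratio the chromosome 2 pair had -1.42, the 16th largest change of the 88, and the chromosome 8 pair had 0.50, against a median absolute value of 0.53 over all pairs.

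**Figure D3:**
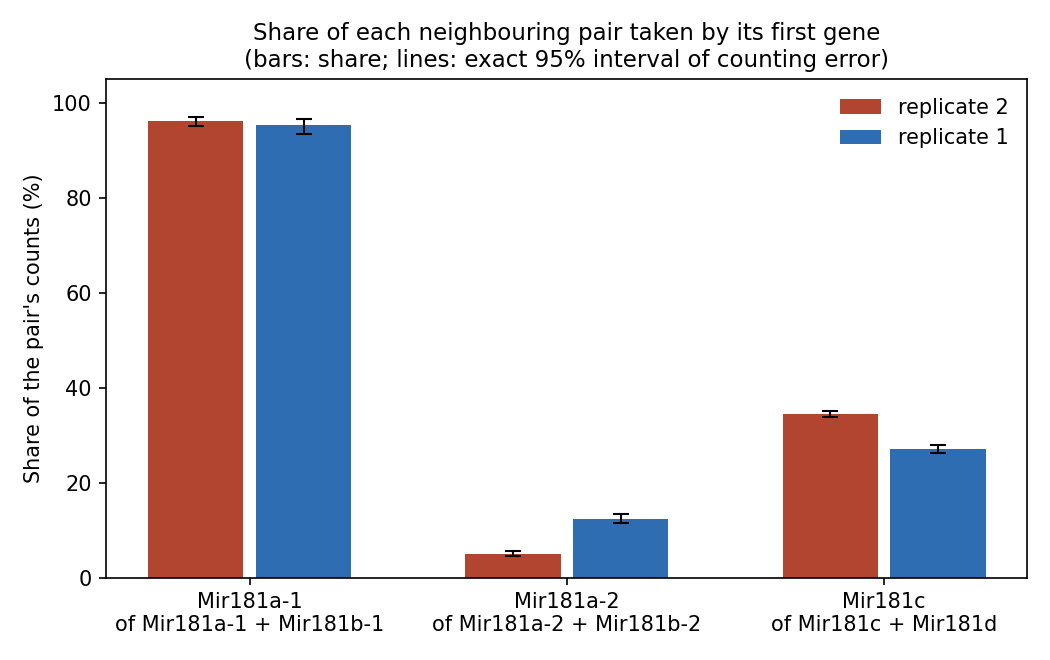
Share of the counts of each neighbouring pair, in percent, taken by its first gene in the direction of transcription, with replicate 2 to the left of replicate 1 and exact 95% intervals of counting error as lines. *Mir181a-1* holds over 95% of its pair in both libraries, *Mir181a-2* 5.05% and 12.4%, and *Mir181c* 34.4% and 27.0%.

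By the assigned reads, the miR-181b copies were far from equal in both libraries, and the miR-181a copies in replicate 2 but hardly in replicate 1. Multiply mapped reads are not in these counts, and their part in the ratios of copies was not tested. Of the counts of both miR-181b genes, *Mir181b-2* took 99.1% in replicate 2 (exact 95% interval 98.9% to 99.3%), against 99.2% in replicate 1 (98.9% to 99.4%). It exceeded *Mir181b-1* by 109.8-fold in replicate 2 and by 123.9-fold in replicate 1. Of the counts of both miR-181a genes, *Mir181a-1* took 80.7% in replicate 2 (79.0% to 82.4%) and 53.3% in replicate 1 (50.7% to 55.9%). The intervals of the libraries overlapped for the miR-181b copies and did not overlap for the miR-181a copies. How often such intervals fail to overlap in other copy pairs was not counted. Among the 88 neighbouring pairs, a different set compared by Fisher's exact test, 64.8% differed in share between the libraries. A lack of overlap by itself is therefore not read here as setting the miR-181a copies apart. The hairpins printed above show that the shared run ends with the 5p strand in the b copies and 4 bases later in the a copies. Whether this bears on the counts was not tested.

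The same comparison was made for all pairs of counted genes that share an identical mature strand in the RefSeq table and have at least 10 counts together in each library. There were 26 such pairs, some of which have a gene in common, and their median absolute log2 ratio was 1.63, as the mean of both libraries with a prior of 0.5 counts. *Mir181b-1* and *Mir181b-2* had 6.85, the third largest, after *Mir199a-1* with *Mir199b* and *Mir3074-1* with *Mir3074-2*. In both of those pairs the lower copy had at most 2 counts, so that the prior sets their ratio. With a prior of 5 counts, chosen after seeing the data, they had 6.17 and 4.33, and the miR-181b copies had the largest ratio, 6.73. *Mir181a-1* and *Mir181a-2* had 1.13, and their log2 ratio differed by 1.88 between the libraries, the fifth largest change, against a median change of 0.503. The same copy was higher in both libraries in 22 of the 26 pairs, both miR-181 pairs included. Here too the ratios hold for the assigned reads only.

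**Figure D4:**
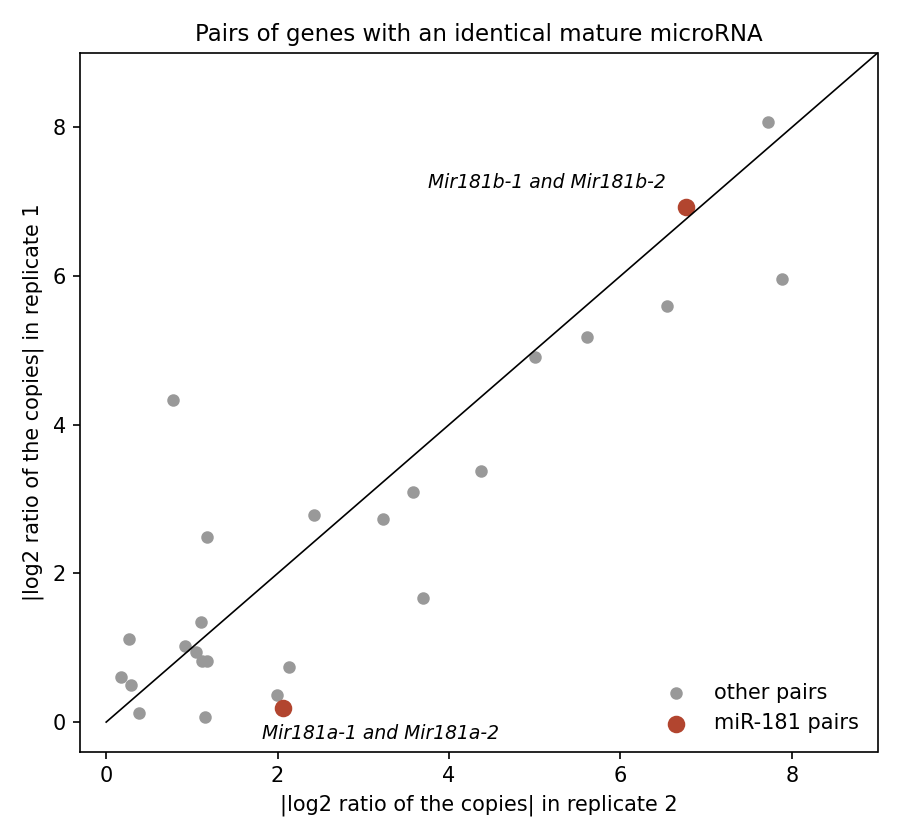
Absolute log2 ratio of the counts of 2 genes with an identical mature microRNA, in replicate 2 on the x axis and replicate 1 on the y axis, for 26 pairs, with a line of equality. The miR-181b copies lie near the line at 6.77 and 6.93, and the miR-181a copies lie off it at 2.07 and 0.19. Multiply mapped reads are not in these counts.

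The libraries were then compared gene by gene. Of the 6 members, 4 were higher and 1 was lower in replicate 2 by an exact two-sided binomial test against TMM-scaled library sizes, adjusted by Benjamini-Hochberg at 0.05 over all 340 detected genes. This test sets the counts against counting error alone and compares 2 libraries, not conditions. Of all detected genes 72.1% passed it, 34.1% as higher and 37.9% as lower in replicate 2, so a call by itself sets no member apart from the other genes. With total counts as the scaling 3 members were higher and 1 was lower, and 243 of the 340 detected genes passed. The median log2 ratio of the 6 members was 0.28, and that of all detected genes -0.05. These ratios are of replicate 2 over replicate 1 after TMM scaling, which moved all of them up by 0.14 against the ratio of the CPM values.

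*Mir181a-2* differed most, with 420 counts in replicate 2 and 668 in the shallower replicate 1. Its log2 ratio was -1.28 (exact 95% interval -1.46 to -1.10, adjusted p = 8.3e-47 by the exact binomial test), the 46th largest in size of the 340 genes. It was the only member lower in replicate 2 under TMM scaling. *Mir181c* was higher in replicate 2 by a log2 ratio of 0.76 (0.69 to 0.82), or 1.69-fold, and *Mir181a-1* by 0.60 (0.48 to 0.72), or 1.51-fold. *Mir181d* was higher by 0.25 (0.21 to 0.29). These 3 genes and *Mir181a-2* kept call and direction under each of the 3 scalings tried.

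For *Mir181b-2* the log2 ratio was only 0.14 (0.09 to 0.19), and its call rests on the scaling. With total counts as the scaling its log2 ratio was -0.0034 and it did not pass (adjusted p = 0.927 by the exact binomial test). *Mir181b-1* did not pass, with a log2 ratio of 0.31 (-0.27 to 0.92, adjusted p = 0.344 by the exact binomial test), and its low counts leave a wide interval. The median absolute log2 ratio was 0.45 over the 6 members and 0.54 over all detected genes.

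**Figure D5:**
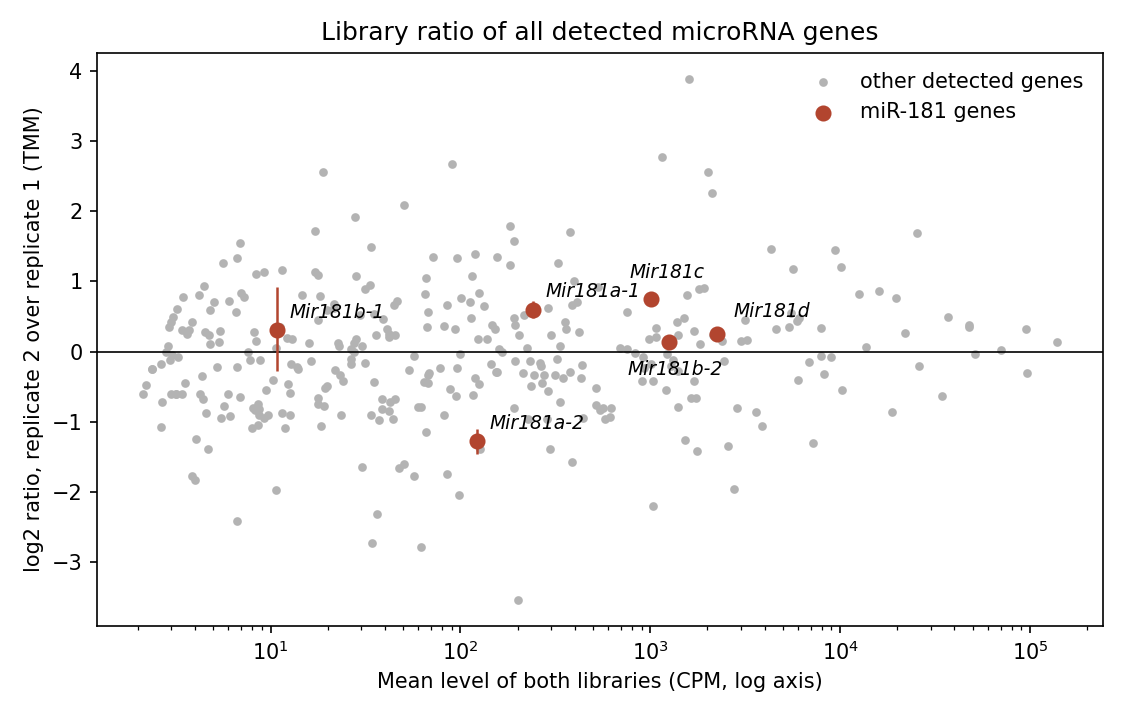
Log2 ratio of replicate 2 over replicate 1 after TMM scaling against the mean level in CPM (log axis) for the 340 detected genes, with miR-181 genes in red and their exact 95% intervals as lines. *Mir181a-2* lies at -1.28 and the other 5 members lie between 0.14 and 0.76.

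Genes with the most similar pattern were sought for the 2 most abundant members by Euclidean distance of log2(CPM + 1) over the 2 libraries, which is mainly a likeness of level. Nearest to *Mir181d* were *Mir361* on chromosome X (2213 CPM in replicate 2 and 2077 CPM in replicate 1, distance 0.085), *Mir98*, a let-7 family gene of the same chromosome (distance 0.15), and *Mir411* of the imprinted region on chromosome 12 (0.32). Nearest to *Mir181b-2* were *Mir674* (1143 and 1293 CPM, distance 0.14), the leukocyte microRNA gene *Mir155* (0.20) and *Mir185* (0.22). None of the 6 is a member of the family.

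The family was set beside microRNAs of the cell types and functions it is known from, by lists chosen with earlier results of these data known. Their counts of called genes are to be read against the 72.1% of all detected genes that passed, 34.1% as higher and 37.9% as lower. The endothelial list, led by *Mir126a* and *Mir221*, took 10.1% of all counts in replicate 2, against 8.97% in replicate 1, and of its 3 detected genes 2 were higher and 1 lower in replicate 2, or 1 higher and 1 lower with total counts as the scaling. The leukocyte list, led by *Mir155* and *Mir146*, took 0.304% and 0.295%, and of its 5 detected genes 3 were higher and 2 lower, or 3 and 0 with DESeq2 size factors, with *Mir142b* at 0 in both libraries. The cardiac muscle list, with *Mir499* and *Mir208a* on top, took 1.25% in replicate 2 against 0.832% in replicate 1, and of its 6 detected genes 3 were higher and 1 lower under each scaling. A list of microRNAs linked to mitochondria of heart muscle, led by *Mir378a* and *Mir499*, took 14.6% and 14.3%, with 3 of its 5 detected genes higher and 1 lower, or 2 and 2 with total counts because *Mir378a* changed direction. Most of this share was *Mir378a*, with 137851 CPM in replicate 2 and 138757 CPM in replicate 1. Most of the endothelial share was *Mir126a*, with 100563 and 88956 CPM. *Mir499*, *Mir1a-1* and *Mir1a-2* are in both the mitochondria list and the cardiac muscle list, so they count in both. Of the 7 genes of the cardiac muscle list, *Mir208a* and *Mir499*, which lie in myosin genes, had 1362 and 7542 CPM in replicate 2 against 3795 and 3678 CPM in replicate 1. *Mir208b*, which lies in another myosin gene, had 3444 CPM in replicate 2 against 794 CPM in replicate 1, the opposite direction to *Mir208a*. *Mir1a-2* had 99.6 CPM in replicate 2 against 43.2 CPM in replicate 1. The other 3, *Mir1a-1*, *Mir133a-1* and *Mir133a-2*, were low, from 0.634 to 4.28 CPM in replicate 2 and from 0.534 to 3.47 CPM in replicate 1. The miR-1a and miR-133a genes are known as copies of each other, and the part of multiply mapped reads in their low levels was not tested. By the assigned reads, the miR-181 family, at 0.515% and 0.459%, took more counts than the leukocyte list and fewer than the other 3 in both libraries. The part of multiply mapped reads in this order was not tested. Which cells the miR-181 reads came from was not tested.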

How the data were processed

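Per the deposited text files, the tables hold reads of microRNA genes on build mm10 with GENCODE M21 as annotation. Aligner, counter and settings: not given in the sources used here. The authors deposited unnormalized counts, 1 table per library with 3 columns, whose values show reads on both strands, on the gene strand (used here) and on the opposite strand. The 4 entries without a gene were left out of totals: multiply mapped reads (48.1% of replicate 2, 36.8% of replicate 1), unmapped reads (11.5%, 16.0%), reads outside genes (3.43%, 4.78%) and ambiguous reads.

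All 2202 identifiers matched GENCODE M21. RefSeq entries were matched by symbol, with mature strands for 6 members and hairpins for 5. Counts were scaled to a total of 1000000 (CPM), at which a count of 0 allows up to 3 counts, 0.476 CPM in replicate 2 or 0.8003 CPM in replicate 1. Library ratios used edgeR 4.0.16 TMM factors, SciPy 1.17.1 binomial tests and a prior of 0.5 counts, with DESeq2 1.42.0 size factors and total counts as alternatives. Pairs were neighbours on a strand with starts within 10000 bases and all 4 counts at least 10. The binomial and Fisher steps were run on simulated counts with known changes, counting error alone and the library ratio given. The TMM scaling and any further spread between libraries were not covered by this. Named genes were the 6 members, the 3 genes nearest in level to each of the 2 most abundant, and the 2 most abundant of each of 4 lists; *Mir142b*, the further cardiac muscle genes and the copy pairs of other families were named after their values were seen. The comparison of copies was added after seeing the data. Members and lists were chosen with earlier results of these data known.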

Additional observations from a re-analysis of the deposited data

How the results depend on the processing

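Of 89 recomputed values, 20 leave out 1 of the 2 libraries, which cannot move a mean by more than the SD, and 23 are fixed by the members' own counts, so these say nothing about stability. Of the other 46, 30 kept their direction and side of the threshold, stayed within 1.5 times the main count or moved by less than the SD between libraries. The family's mean share of counts, 0.487%, was 0.668% with the column for both strands, 1.36% with the 10 most abundant genes left out of the total and 0.193% with all reads as the total. These changes follow from the totals, since the members' own counts were the same in both columns. Levels of single members moved likewise, as 11 of the changed values. The log2 ratio of the miR-181b copies was 6.73 with a prior of 5 counts, an alternative chosen after seeing the data, against 6.85. The only reversal among the recomputed values was *Mir181b-2*, whose log2 ratio of 0.14 became -0.0034 with total counts (adjusted p = 0.927 by the exact binomial test, against 3.1e-07 with TMM and 6.1e-16 with DESeq2 size factors). Calls among the members were 5 under all settings but total counts, with 4. Over all genes tested, 245 of 340 passed as reported, 243 of 340 with total counts and 237 of 340 with DESeq2 size factors. For both strands 220 of 316 passed, with no minimum count 252 of 733, and at a minimum of 50 counts 214 of 249. *Mir181b-1*, with 38 counts in replicate 1, was not among the genes tested at that minimum. The alternatives for the shares of the loci and of the pairs could change only the set of pairs tested or the library left out. The chromosome 1 pair has no value at a minimum of 50 counts and the chromosome 2 pair none for starts within 1000 bases. No paired analysis was possible because the libraries form a single group. Depth limits *Mir181b-1* most, with 72 and 38 counts.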

Other observations

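In the RefSeq table, 92 of the 1018 counted genes with a mature strand share an identical strand with another counted gene, and 4 of these are miR-181 genes. Of these 92 genes 43.5% were detected, with a median level of 46.3 CPM among those detected. Of the other 926 genes 28.8% were detected, with a median of 68.3 CPM. Among detected miR-181 genes, *Mir181b-2* at 1255 CPM and *Mir181a-1* at 241 CPM lay above the first of these medians, as did *Mir181a-2* at 122 CPM, while *Mir181b-1* at 10.8 CPM lay below it.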
